A study of Mus musculus with 6 samples.

Results

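The genes for the proteasome were followed in GLUTag cells, an established mouse line of enteroendocrine origin that makes the incretin GLP-1. Members were every row of the gene table whose Ensembl identifier maps to a protein-coding mouse symbol beginning with Psma, Psmb, Psmc, Psmd, Psme, Psmf or Psmg, which gave 50 of 54281 genes. The rule uses names alone and no measured value. It therefore also takes in Psmc3ip, a partner of the meiotic recombinase machinery that is not a proteasome subunit, and it leaves out Sem1 and Adrm1, which are subunits under other names.

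The 6 libraries were of a single condition, GLUTag cells grown for 48 h in low glucose (1 g/L) DMEM with 10% heat inactivated FBS on Matrigel. There were 3 libraries of plate 1 at passage 23 (replicates 1, 2 and 3) and 3 of plate 2 at passage 27. The labels do not name wells, and each library is taken here to stand for 1 well. The effects of plate and of passage cannot be told apart. No source used here says whether the wells of a plate came from separate cultures, so all p-values, those that compare genes included, measure only the spread between these 6 libraries, which may be technical. No column of plate 2 could be tied to a replicate number of the labels, so these wells are called lowest, middle and highest after their total counts. Each count stands for the 3′ end of a transcript and not for its length, so that genes can be compared without a correction for length. The GC content of transcript ends and sequence shared with other genes, both described further on, were not corrected for. Levels are given as counts per M counts of the library (CPM). Totals lay between 21.4 M and 36.5 M counts. All 12 enteroendocrine markers were found above 3 counts in every library, with Gcg, which encodes proglucagon, at a mean of 3416 CPM. The RNA came from whole wells, so that fewer expressing cells and less RNA per cell cannot be told apart.

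The proteasome is the main protease of the cytosol and nucleus and degrades proteins that carry a ubiquitin chain. Its core particle, the 20S barrel, has outer rings of alpha subunits, which form the gate, and inner rings of beta subunits, of which beta1 (Psmb6), beta2 (Psmb7) and beta5 (Psmb5) hold the active sites. Interferon-gamma induces the immune forms beta1i (Psmb9), beta2i (Psmb10) and beta5i (Psmb8), which take the same places in newly made barrels and alter the peptides that are offered on MHC class I, and beta5t (Psmb11) takes the beta5 place in cortical thymic epithelium. The 19S cap, with a ring of ATPases (Psmc) and the non-ATPase base and lid (Psmd), binds and unfolds the substrate, while Psme proteins are alternative caps, Psmf1 encodes the inhibitor PI31 and Psmg genes encode chaperones of barrel assembly. In endocrine cells this machinery also removes misfolded prohormone that is returned from the endoplasmic reticulum.

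The genes for the catalytic places lie in 3 arrangements on GRCm38. Psmb5 (ENSMUSG00000022193, chr14:54614119-54618022, minus strand) and Psmb11 (ENSMUSG00000072423, chr14:54621433-54629556, plus strand) are divergent neighbours. Psmb9 (ENSMUSG00000096727, chr17:34181987-34187764, minus strand) and Psmb8 (ENSMUSG00000024338, chr17:34197721-34201454, plus strand) lie in the MHC on either side of Tap1, a peptide transporter gene whose annotated span overlaps the 5′ part of Psmb9 on the opposite strand. Psmb6 (ENSMUSG00000018286, chr11:70525367-70527858, plus strand), Psmb7 (ENSMUSG00000026750, chr2:38588036-38644087, minus strand) and Psmb10 (ENSMUSG00000031897, chr8:105935735-105938444, minus strand) are on other chromosomes. At the beta2 place, no promoter sequence was available for Psmb7. The 250 bases before the RefSeq start site (GRCm38.p6) are shown for the beta5 and beta1 places. They were read on the coding strand, and capitals mark a match to one of the letter patterns searched.
Psmb5, constitutive beta5, chr14:54617996-54618245, minus strand: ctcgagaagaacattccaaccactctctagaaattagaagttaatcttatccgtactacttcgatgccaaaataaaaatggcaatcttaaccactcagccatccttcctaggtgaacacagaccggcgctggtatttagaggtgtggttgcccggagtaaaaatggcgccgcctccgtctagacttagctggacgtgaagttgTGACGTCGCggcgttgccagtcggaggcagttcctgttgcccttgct
Psmb8, immune beta5i, chr17:34197945-34198194, plus strand: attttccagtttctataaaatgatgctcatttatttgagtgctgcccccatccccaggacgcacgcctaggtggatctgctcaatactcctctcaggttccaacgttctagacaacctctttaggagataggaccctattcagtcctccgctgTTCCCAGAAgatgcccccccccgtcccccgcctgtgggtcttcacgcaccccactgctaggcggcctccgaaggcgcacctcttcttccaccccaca
Psmb11, thymus beta5t, chr14:54625060-54625309, plus strand: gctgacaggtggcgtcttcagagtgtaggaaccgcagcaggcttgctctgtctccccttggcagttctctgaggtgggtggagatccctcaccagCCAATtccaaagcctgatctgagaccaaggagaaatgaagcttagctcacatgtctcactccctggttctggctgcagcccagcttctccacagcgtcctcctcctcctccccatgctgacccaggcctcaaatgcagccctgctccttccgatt
Psmb6, constitutive beta1, chr11:70525107-70525356, plus strand: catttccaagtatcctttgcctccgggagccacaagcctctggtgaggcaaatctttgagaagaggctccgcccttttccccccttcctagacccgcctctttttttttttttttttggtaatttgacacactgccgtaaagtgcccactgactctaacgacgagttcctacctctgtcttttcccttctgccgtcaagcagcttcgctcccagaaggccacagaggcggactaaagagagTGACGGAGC
Psmb9, immune beta1i, chr17:34187331-34187580, minus strand: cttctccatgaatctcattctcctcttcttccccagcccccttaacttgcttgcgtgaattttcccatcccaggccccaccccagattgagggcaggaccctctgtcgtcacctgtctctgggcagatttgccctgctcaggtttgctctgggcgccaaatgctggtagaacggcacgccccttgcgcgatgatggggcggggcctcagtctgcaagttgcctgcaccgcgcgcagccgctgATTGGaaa

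The patterns were searched on both strands and could overlap each other. TGACNNNGC, an antioxidant response element of the kind that Nrf proteins bind, was found in the windows of both constitutive genes shown, at bases 204 to 212 for Psmb5 and 242 to 250 for Psmb6, counted from 1 at the 5′ end. TTCNNNGAA, the gamma-activated site that STAT proteins bind, was found at bases 154 to 162 for Psmb8. CCAAT was found at base 96 for Psmb11 and, on the other strand, from base 243 for Psmb9. No window shown held the core of the interferon-stimulated response element, searched as 2 copies of GAAA with 2 bases between them. The window of Psmb10, which is not shown, held none of these patterns. Over the 45 windows of 42 members, TGACNNNGC was in 5, TTCNNNGAA in 2, CCAAT in 15 and the interferon-stimulated core in 3. Over all 32851 windows of this length, they were in 10.2%, 7.02%, 33.8% and 2.98%. A match says only that the letters are there.

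Nearly all members were expressed, over a wide range of levels. Of the 50 members, 49 had enough counts to be tested, and Psma8, which encodes the alpha subunit of the testis proteasome, had 0 counts in all 6 libraries, which allows up to 0.0822 to 0.140 CPM depending on the library (3 counts, counting error only). The members together took 0.941% ± 0.0568 of all counts (SD, n = 6), from 0.883% to 1.02%. The median member lay at 149.9 CPM. Across the 6 libraries, the coefficient of variation of the median member was 13.8%, against 16.2% for the 5031 genes tested with a mean of at least 30 CPM.

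**Figure D1:**
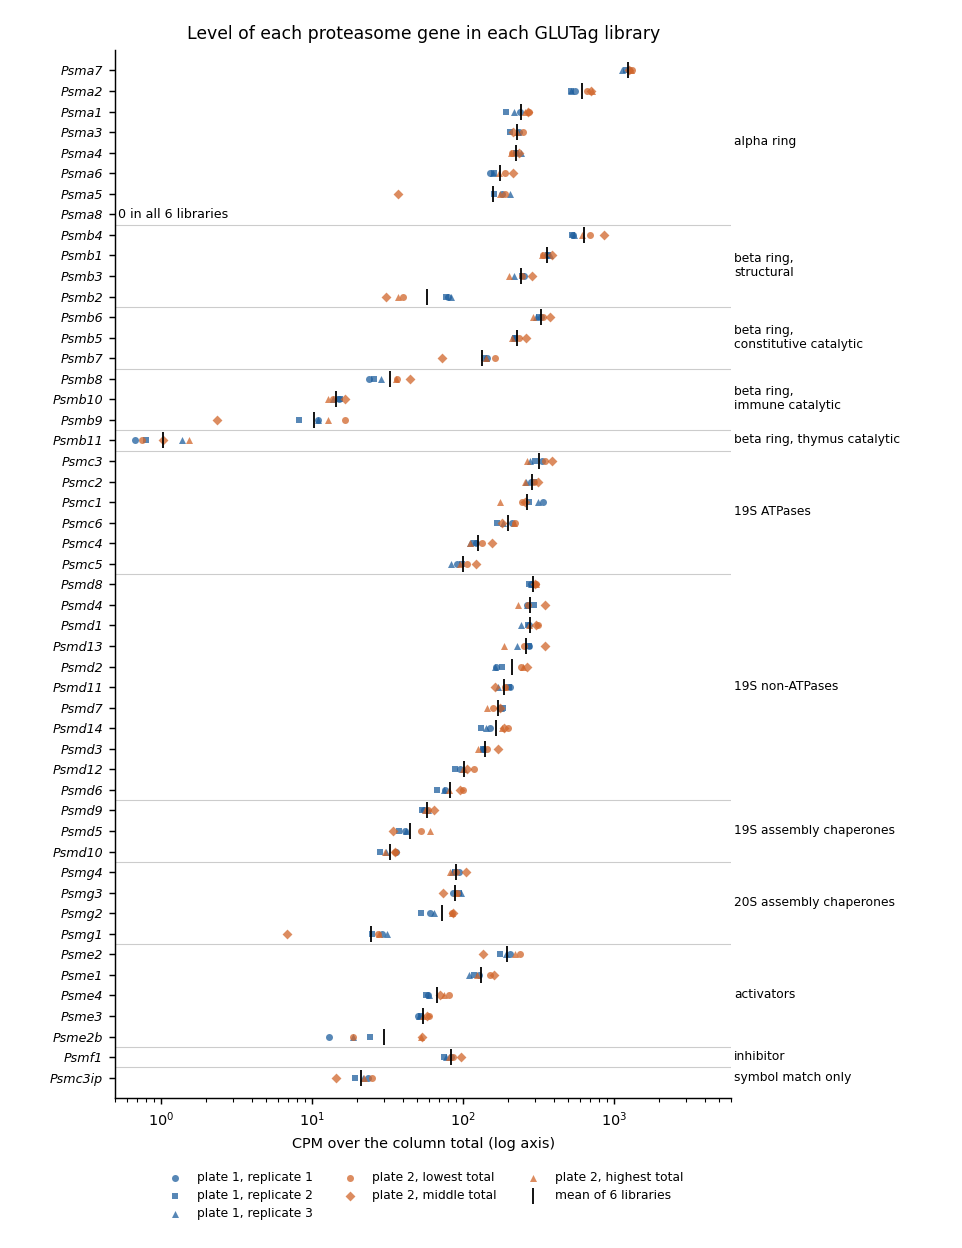
Level of each of the 50 members in CPM over the column total (log axis), grouped by role, with 1 point per library (blue for plate 1, orange for plate 2) and a black bar at the mean of 6 libraries. Most members lie between 50 and 400 CPM, the immune and thymus catalytic subunits lie below, Psmb2 separates by plate, and the plate 2 library of middle total (diamonds) falls far to the left for Psma5, Psmb9 and Psmg1.

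In the alpha ring, whose subunits gate the barrel, Psma7 (alpha4) stood above all other members at 1249 ± 69.9 CPM (SD, n = 6), from 1128 CPM in plate 1 replicate 3 to 1316 CPM in the plate 2 library of lowest total. Psma2 (alpha2) followed at 614 ± 94.3 CPM. The lowest of the 7 alpha subunits of the somatic barrel were Psma6 (alpha1) at 175 ± 24.3 CPM and Psma5 (alpha5) at 158 ± 61.0 CPM. These 7 subunits are built into the barrel in equal number, yet their transcripts spanned from 6.94-fold to 34.1-fold between the highest and the lowest within a library. The widest span was that of the plate 2 library of middle total, in which Psma5 was at 37.3 CPM against 162 to 205 CPM in the other libraries.

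The beta subunits without an active site are Psmb1 (beta6), Psmb2 (beta4), Psmb3 (beta3) and Psmb4 (beta7). Psmb4 was the highest at 633 ± 129 CPM and Psmb1 was next at 362 ± 21.3 CPM, while Psmb3 lay at 243 ± 28.8 CPM. Psmb2 was the lowest at 58.1 ± 24.4 CPM, with the plates at separate levels that are described further on. Counted here were 31 subunits of the constitutive 26S particle (7 alpha, 7 beta, 6 ATPases and 11 non-ATPases), without Adrm1 and Sem1. The median of their mean levels was 227 CPM, and Psmb2 had the lowest mean of the 31. Adrm1 had a lower one (20.6 CPM).

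The cap subunits with Psmc and Psmd symbols were closer to each other than the barrel subunits. This holds only within the symbol rule. Adrm1 (20.6 ± 3.97 CPM) and Sem1 (398 ± 152 CPM), subunits under other names, had means below and above all of these. Among the 6 ATPases, which unfold the substrate, Psmc3 was highest at 321 ± 48.1 CPM, Psmc2 followed at 286 ± 21.8 CPM, and Psmc4 (126 ± 17.4 CPM) and Psmc5 (100.02 ± 13.5 CPM) were lowest. The span within a library was 2.79-fold to 3.78-fold. Among the 11 non-ATPases, Psmd8 was highest at 292 ± 13.1 CPM and Psmd4, a ubiquitin receptor, lay at 281 ± 40.4 CPM, and these neighbours in the order did not differ beyond their spread. Psmd12 (102 ± 10.3 CPM) and Psmd6 (82.8 ± 13.03 CPM), both of the lid, were lowest, and the span within a library was 3.14-fold to 4.41-fold.

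Chaperones and regulators lay below most subunits. The chaperones of cap assembly were at 57.8 ± 3.79 CPM for Psmd9, 44.99 ± 10.1 CPM for Psmd5 and 32.9 ± 3.20 CPM for Psmd10. Of the chaperones of barrel assembly, Psmg4 (90.5 ± 8.14 CPM) and Psmg3 (88.9 ± 8.15 CPM) did not differ beyond their spread, whereas Psmg2 was at 72.4 ± 14.6 CPM and Psmg1 at 24.6 ± 8.95 CPM. Psmg1 was at 29.01, 24.9 and 31.4 CPM in replicates 1, 2 and 3 of plate 1 and at 27.3, 6.86 and 28.1 CPM in the plate 2 libraries of lowest, middle and highest total, so that only 1 library lay apart. Psmf1, which encodes the inhibitor PI31, was at 83.7 ± 7.76 CPM. Psmc3ip was at 21.1 ± 3.74 CPM, and Mlx on the opposite strand, at 70.2 CPM, covers its 3′ end.

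The alternative caps are the interferon-inducible PA28 alpha and beta (Psme1 and Psme2), the nuclear PA28 gamma (Psme3) and PA200 (Psme4). Psme2 was at 196 ± 36.7 CPM, Psme1 at 132 ± 19.6 CPM, Psme4 at 67.3 ± 10.1 CPM and Psme3 at 54.5 ± 3.75 CPM. The split between Psme2 and its near copy Psme2b is uncertain, since 70.7% of the 31-base words in the last 300 bases of Psme2b transcripts also occur at the ends of Psme2 transcripts. Psme2b was listed at 12.9, 24.2 and 18.6 CPM on plate 1 and at 18.9, 54.1 and 52.7 CPM on plate 2 (lowest, middle and highest total). Its plate 2 library of lowest total lay at 0.353 times the mean of the plate's other libraries. Of the 50 members, 14 shared at least 5% of their end words with another gene, and for 6 of them such a gene was above 1 CPM. The processed pseudogene Gm3375, at 12.2 CPM, shares 61.8% of the end words of Psmb5, so that some of the counts of either may belong to the other.

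For each catalytic place, the constitutive form was compared with the form that can replace it. The constitutive form was higher in 6 of 6 libraries for each of the 4 comparisons, and each gave p = 0.03125 in an exact permutation test (sign flips, two-sided) on log2 of the ratio of CPM + 1, which treats the libraries as independent and is the smallest p that 6 libraries allow (0.03125 after Benjamini-Hochberg adjustment over the 4). At the beta5 place, Psmb5 was at 217, 221 and 217 CPM on plate 1 and at 234, 262 and 212 CPM on plate 2. Psmb8 was at 23.8, 25.8 and 28.9 CPM on plate 1 and at 36.4, 45.1 and 36.3 CPM on plate 2. The constitutive form was thus 5.82 to 9.11 times the immune form, with a mean log2 ratio of 2.79 ± 0.27 (SD, n = 6).

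At the beta1 place, Psmb6 was at 329, 322 and 307 CPM on plate 1 and at 339, 379.9 and 290.2 CPM on plate 2. Psmb9 was at 11.04, 8.22 and 10.98 CPM on plate 1 and at 16.6, 2.36 and 12.8 CPM on plate 2, the lowest value resting on 73 counts in the library of middle total. The mean log2 ratio was 5.01 ± 0.94 (SD, n = 6), and 4.65 ± 0.34 without that library, in which Psmb6 was 161 times Psmb9 against 20.5 to 39.2 times in the others. At the beta2 place, Psmb7 was at 144, 139 and 143 CPM on plate 1 and at 163, 72.9 and 143 CPM on plate 2. Psmb10 was at 15.2, 15.3 and 13.9 CPM on plate 1 and at 13.7, 16.6 and 12.8 CPM on plate 2. The mean log2 ratio was 3.08 ± 0.51 (SD, n = 6), and the constitutive form was 4.40 times the immune form in the plate 2 library of middle total and 9.07 to 11.8 times in the others.

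The thymus form Psmb11 was listed at 0.673, 0.795 and 1.38 CPM on plate 1 and at 0.748, 1.04 and 1.54 CPM on plate 2, which is 16.1 to 56.2 counts. The ratio of Psmb5 to Psmb11 in CPM was 138 to 323. On the scale of CPM + 1, which understates the ratio for a gene near 1 CPM, the mean log2 ratio was 6.83 ± 0.30 (SD, n = 6). The level of Psmb11 is uncertain, because the last 300 bases of its transcripts share 31-base words with 723 other genes, up to 43 of 540 words with a single gene. Of 5 markers of thymic epithelium, 3 had a lower mean than Psmb11 and 2 a higher one. Foxn1, the master factor of that tissue, was at most 0.309 CPM and Krt5 was at 0 in all libraries, while Prss16 was at 0.636 ± 0.311 CPM and Cd83, which dendritic and other immune cells also make, at 2.29 ± 0.867 CPM. The summed level of the 5 markers (12.3 to 16.2 CPM on plate 1 and 13.9 to 15.1 CPM on plate 2) came mostly from Ccl25 (11.6 CPM), a chemokine that intestinal epithelium also makes.

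**Figure D2:**
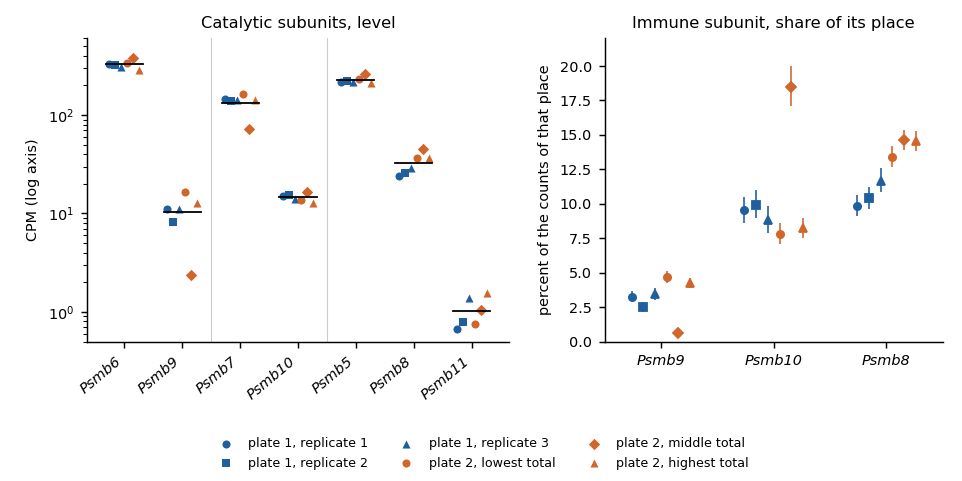
Left, CPM (log axis) of the catalytic subunits in each library, with a black bar at the mean, set side by side by place (beta1, beta2 and beta5). Right, the immune subunit as a percentage of the rounded counts of its place, with exact 95% binomial intervals; Psmb8 is higher in every plate 2 library, at 13.4% to 14.6%, than in any plate 1 library, at 9.86% to 11.7%.

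The immune forms made up a small share of each place. Psmb8 was 12.4% ± 2.07 of the counts of the beta5 place (SD, n = 6), Psmb10 was 10.5% ± 4.02 of the beta2 place and Psmb9 was 3.12% ± 1.44 of the beta1 place. As a share within a place does not depend on how libraries are scaled, it can be set beside the plates. The Psmb8 share was 10.7% ± 0.930 on plate 1 and 14.2% ± 0.675 on plate 2 (SD, n = 3 each), with no overlap, but 3 against 3 wells cannot reach p under 0.10 in an exact test and none was made. The other immune shares overlapped between the plates. The Psmb9 share was 3.06% ± 0.508 on plate 1 and 3.17% ± 2.22 on plate 2, and the Psmb10 share was 9.43% ± 0.549 and 11.5% ± 6.07. For Psmb10, the plate 2 libraries of lowest and highest total (7.79% and 8.21%) lay below every library of plate 1 (8.85% to 9.93%), while for Psmb9 the same libraries (4.66% and 4.22%) lay above every one (2.49% to 3.45%). The Psmb9 share in the plate 2 library of middle total was 0.618% (exact 95% binomial interval 0.484% to 0.776%, counting error only), below the other 5 libraries. The Psmb10 share in the same library was 18.5% (17.1% to 20.01%), above the other 5, with Psmb7 at its lowest and Psmb10 at its highest level there.

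Leukocyte markers, looked at because the immune forms are constitutive in leukocytes, were near 0. Their 8 genes summed to 1.72 to 2.13 CPM on plate 1 and 2.36 to 3.77 CPM on plate 2 (1.86 to 2.32 and 2.19 to 3.39 CPM after TMM scaling, with overlap), with Ptprc, which encodes CD45, at most 0.110 CPM. Genes of interferon signalling and antigen processing were expressed. H2-K1 (346 ± 93.8 CPM) and H2-D1 (309 ± 69.9 CPM), the classical MHC class I heavy chains, were the highest of the 17 listed, B2m was at 59.4 ± 18.2 CPM and Tap1 at 5.28 ± 2.37 CPM. Nlrc5, the transactivator of MHC class I genes, was the lowest at 0.216 CPM. The list's summed level was 801 to 920 CPM on plate 1 and 1043 to 1206 CPM on plate 2 over the column total. After TMM scaling it was 904 to 987 CPM and 968 to 1099 CPM, so that the plates overlapped.

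Between the plates, Psmb2 was the single member that passed the test. Psmb2 had been picked for this comparison with earlier results of these data known. It was at 79.6, 77.3 and 83.5 CPM in replicates 1, 2 and 3 of plate 1 and at 40.02, 31.2 and 37.1 CPM in the plate 2 libraries of lowest, middle and highest total, so that the plates did not overlap. Psmb2 (ENSMUSG00000028837, chr4:126677630-126709714, plus strand) encodes beta4, which sits in the inner ring beside the beta5 subunit and has no active site. Its log2 fold change, plate 2 over plate 1, was −1.42 ± 0.12 (SE; edgeR quasi-likelihood test, Benjamini-Hochberg adjusted p = 0.00727), and it had the second smallest p of 15669 genes tested. Of these genes, 29 passed an adjusted p of 0.05 (0.185%), 2 higher (0.0128%) and 27 lower (0.172%) on plate 2, beside 1 of 49 members. With the number in the column names as a block, 5 genes passed, and Psmb2 was among them at −1.43 ± 0.12 (SE; edgeR adjusted p = 0.0497). The fold change lay between −1.49 and −1.15 in 14 alternative fits. The call was lost when plate 1 replicate 1 (adjusted p = 0.0636), plate 1 replicate 2 (0.0837) or the plate 2 library of lowest total (0.0717) was left out, where at most 2 genes of the whole table passed.

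The position of Psmb2 among its partners also differed between the plates. Its level was 34.6%, 36.2% and 38.2% of the median of the other 30 subunits of the 26S particle in replicates 1, 2 and 3 of plate 1. On plate 2 it was 16.4%, 11.98% and 17.6% in the libraries of lowest, middle and highest total. Psmb2 was the lowest of the 31 in each library of plate 2 and next to the lowest in each library of plate 1. Adrm1, a subunit outside the symbol rule and not among the 31, was lower than Psmb2 in every library (16.1 to 25.7 CPM). On the log2 scale the level of Psmb2 relative to the mean of the other 30 was −1.46 ± 0.07 on plate 1. It was −2.71 ± 0.20 on plate 2 (SD, n = 3 each), a difference of −1.24. The other 30 subunits, taken the same way, differed by −0.82 (Psma5) to 0.54 (Psmd2).

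**Figure D3:**
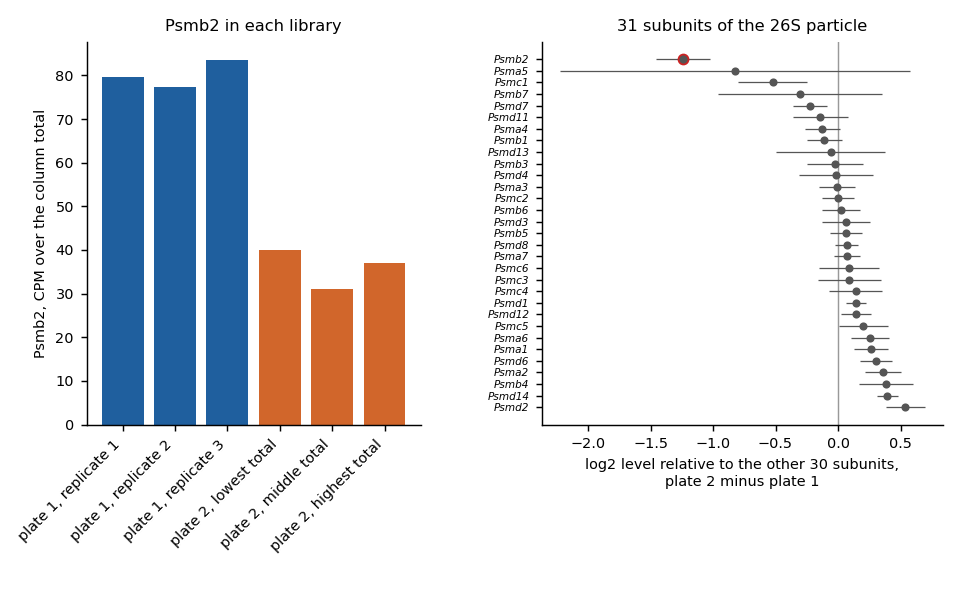
Left, Psmb2 in CPM over the column total in each library, from 77.3 to 83.5 on plate 1 (blue) and from 31.2 to 40.02 on plate 2 (orange). Right, for each of the 31 subunits of the 26S particle, the mean log2 level relative to the other 30 on plate 2 minus that on plate 1, with bars for the root of the summed squares of both plates' SDs (n = 3 wells each); Psmb2 (red) lies farthest to the left at −1.24, and the wide bar of Psma5 comes from 1 library.

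The ends of Psmb2 transcripts share no 31-base word with any other gene, and no other annotated gene overlaps its span. Within 500000 bases on either side, 20 other genes were tested, and 0 passed an adjusted p of 0.05 in edgeR while 3 had an unadjusted p under 0.05, as 16.1% of all genes did, all 3 with a higher level on plate 2. Their log2 fold changes lay between −0.32 and 0.77, with a median of 0.14.

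The other members differed less between the plates. The next smallest p-values were those of Psmc1, an ATPase, with a log2 fold change of −0.71 ± 0.16 (SE; edgeR adjusted p = 0.107), and Psmd7, a lid subunit, with −0.43 ± 0.12 (adjusted p = 0.142). Psmg3 had −0.39 ± 0.12 (0.177) and Psma4, alpha3 of the barrel, had −0.34 ± 0.11 (0.179). Psmc1 was at 340.5, 273 and 316 CPM on plate 1 and at 248, 258 and 176 CPM on plate 2, without overlap, and the processed pseudogenes that share the most of its end words were below 1 CPM. In DESeq2 Psmc1 had an adjusted p of 0.00660, where 584 genes (3.73%) passed, 2.73% lower, and with all genes kept regardless of low counts it had 0.00124 in edgeR, where 545 genes (2.02%) passed, 1.07% lower.

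Over all 49 members tested, the median log2 fold change was −0.16, against 0.03 over all 15669 genes. Below 0 lay 36 of the 49 members and 7188 of the 15669 genes. For the 5031 genes whose mean reached 30 CPM, the median was −0.02 and 2702 lay below 0. Without overlap of the plates in TMM-scaled CPM, 15 members were lower on plate 2, where 12.0% of all genes were so, and 5 were higher, where 12.8% were. Among the 5031 genes whose mean reached 30 CPM these shares were 18.2% and 12.3%. The scaling moved all of these values together. Without scaling beyond the column total, the median of all genes moved to 0.30 and that of the members to 0.11, and 6 members passed, where 9.46% of genes did. Of these, Psmb2 was lower and Psmd2, Psma2, Psmb8, Psmg2 and Psmd14 were higher on plate 2, among 1411 genes higher (9.01%) and 71 lower (0.453%). Psmb2 was lower on plate 2 under either scaling. The sign of the members' median changed with a shift of all genes, so that it says nothing about the members. Their median lay below that of all genes under either scaling.

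**Figure D4:**
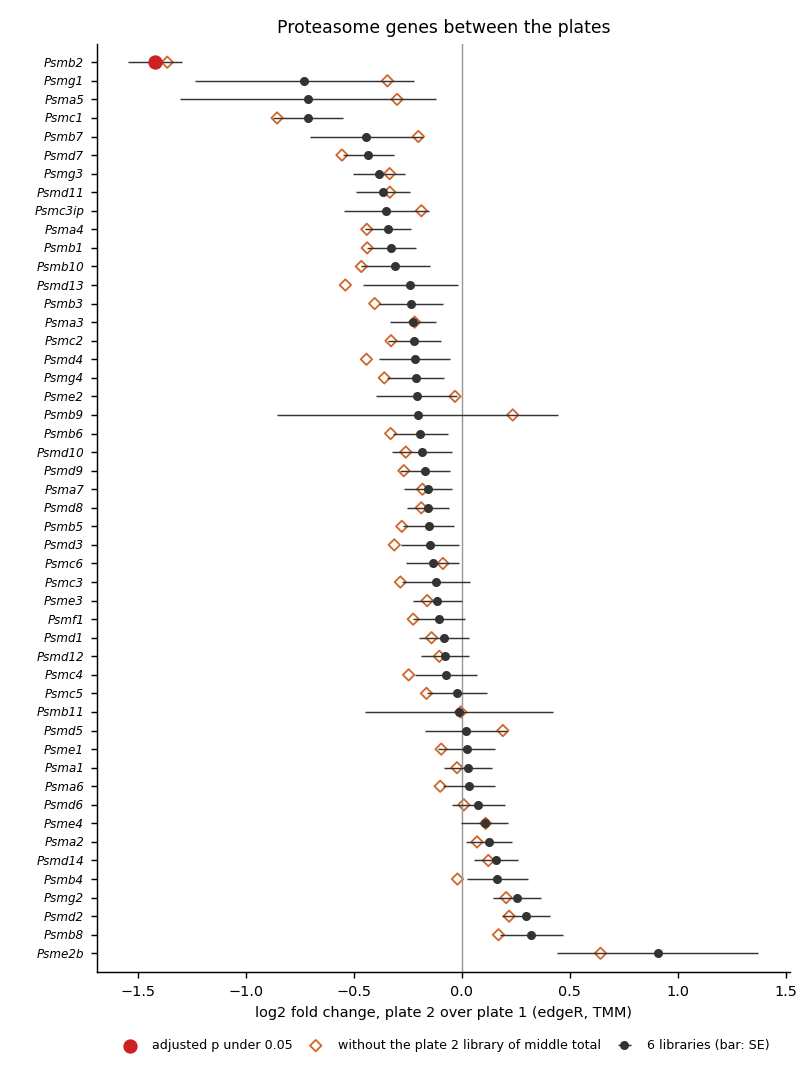
Log2 fold change of the 49 members tested, plate 2 over plate 1, from edgeR with TMM scaling. Filled points with SE bars are from 6 libraries, with red for an adjusted p under 0.05, and open diamonds are without the plate 2 library of middle total. Psmb2 at −1.42 is the only red filled point, and most other members lie a little below 0. In the fit without that library 15 members passed.

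The plate 2 library of middle total stood apart from the rest across all genes, and not for the members in particular. In it, 4 of 49 members were over 2-fold lower than the mean of the other libraries of its plate (Psma5, Psmb9, Psmg1 and Psmb7), where 10.1% of all genes tested were so. Over 2-fold higher were 0 members, where 1.53% of genes were. Among the 5031 genes whose mean reached 30 CPM, 354 were over 2-fold lower in that library and 2 were over 2-fold higher. In the plate 2 library of lowest total, Psmb9 was 2.19 times the mean of the others, where 1.53% of genes were over 2-fold higher. That mean holds the low value of the library of middle total (2.36 CPM), and Psmb9 was at 16.6 CPM against 12.8 CPM in the library of highest total. In the library of lowest total Psme2b was over 2-fold lower, where 1.86% of genes were. No member departed in the remaining 4 libraries. Over 2-fold lower in them were 4.65%, 5.58% and 2.41% of genes (replicates 1, 2 and 3 of plate 1) and 2.25% (plate 2, highest total). Over 2-fold higher were 1.98%, 1.61%, 5.16% and 3.08%. Outside the library of middle total, departures in either direction numbered 4715 over all 15669 genes tested and 2 over the 49 members. They numbered only 65 over the 5031 genes whose mean reached 30 CPM. Sem1, a small lid subunit outside the symbol rule, was at 93.03 CPM in the library of middle total against 412 to 505 CPM in the other 5. The departure of a gene in this library went with the GC content of its transcript end, with a Spearman's rho of 0.45 over 15600 genes and 0.51 over 49 members, which are not independent replicates and share the library. Its part in the results was not tested.

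**Figure D5:**
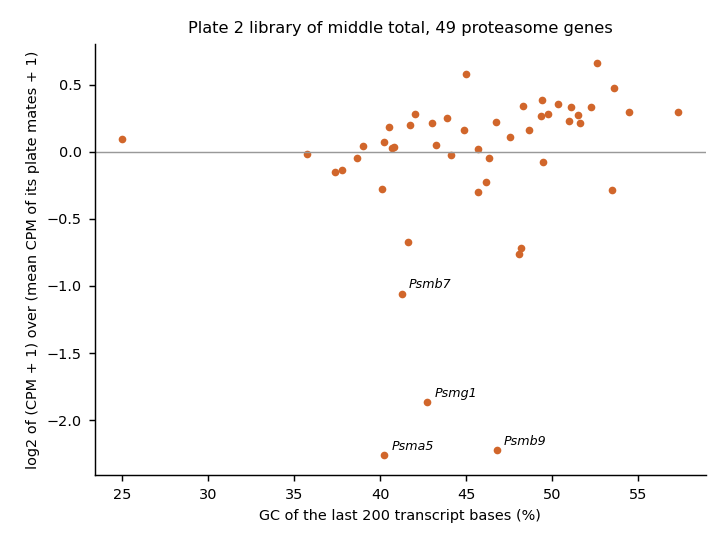
Departure of each of 49 members in the plate 2 library of middle total, as log2 of CPM + 1 over the mean of the plate's other 2 libraries, against the GC content of the last 200 bases of its transcripts (%), with 1 point per gene. Psma5, Psmb9, Psmg1 and Psmb7 lie below −1, and Spearman's rho over the points is 0.51.

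When the library of middle total was left out, the test between the plates called many more genes. Then 1911 of 15894 genes (12.0%) passed, 667 higher (4.2%) and 1244 lower on plate 2. Of the members, 15 passed and all of them were lower on plate 2, where 7.83% of genes passed in that direction, and 17.3% of the 5031 genes whose mean reached 30 CPM. They were Psmb2 at a log2 fold change of −1.36 and 14 more between −0.86 (Psmc1) and −0.31 (Psmd3), among them the barrel subunits Psma4, Psmb1, Psmb3, Psmb6 and Psmb10, the ATPase Psmc2, the non-ATPases Psmd4, Psmd7, Psmd11 and Psmd13 and the chaperones Psmg3 and Psmg4. The median over the members was −0.20, against 0.01 over all genes and −0.05 over the genes whose mean reached 30 CPM. None of these 14 passed in edgeR with TMM scaling and the filter on all 6 libraries, though Psmc1 passed there in DESeq2 and without the filter.

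Other genes of the pathway gave the setting of the members. Of the proteasome partners outside the symbol rule, 16 of the 17 listed were found. The barrel maturation factor Pomp was the highest at 502 ± 109 CPM, followed by Sem1 at 398 ± 152 CPM, and Adrm1, a ubiquitin receptor, was at 20.6 ± 3.97 CPM. In edgeR 0 of the 15 tested passed between the plates, and 0 had an unadjusted p under 0.05 (16.1% of all genes did). In DESeq2 and in limma-voom 0 passed. The median log2 fold change of the 15 in edgeR was −0.08 (0.18 without scaling beyond the column total). In edgeR, 1 was called higher without that scaling, where 9.01% of all genes were. Without the plate 2 library of middle total 2 were called lower (−0.51 and −0.44), where 7.83% of genes were. Of the genes for transcription control of the proteasome, Nfe2l1, the factor Nrf1 that restores proteasome genes after inhibition, was at 40.5 ± 4.33 CPM, its protease Ddi2 at 32.8 ± 5.51 CPM, its relative Nfe2l2 at 21.4 ± 3.04 CPM and Ngly1, which deglycosylates Nrf1, at 5.22 ± 1.92 CPM. Between the plates 0 of these 4 passed in edgeR, DESeq2 or limma-voom, with 1 at an unadjusted p under 0.05 in edgeR (16.1% of all genes).

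Among genes for ubiquitin and its activation, Rps27a (2556 ± 323 CPM), a fusion of ubiquitin with a ribosomal protein, was the highest and the activating enzyme Uba6 (39.9 ± 4.88 CPM) the lowest. Of these 6, 0 passed between the plates in edgeR, DESeq2 or limma-voom, and 2 had an unadjusted p under 0.05 in edgeR (16.1% of all genes did). Without the plate 2 library of middle total 2 were called lower (−0.64 and −0.53), where 7.83% of all genes were. Over the column total 1 was called higher, where 9.01% of genes were, and without a filter on low counts 1 was called (2.02% of genes). Of the 16 genes of interferon signalling and antigen processing that were tested, 0 passed in edgeR or limma-voom. In edgeR 5 had an unadjusted p under 0.05 (16.1% of all genes did), and in DESeq2 Tapbp, which encodes tapasin, passed (3.73% of genes did). Over the column total 4 were called higher, where 9.01% of all genes were. Without the plate 2 library of middle total 2 were called higher (0.50 and 0.58), where 4.2% of genes were. Without a filter 1 was called, where 2.02% of genes were. The median log2 fold change of that list was 0.16 (0.43 without such scaling) and 12 of the 16 lay above 0. Of its genes, 5 were higher and 1 was lower on plate 2 without overlap of the plates, beside 12.8% and 12.0% of all genes. Psmb8, among the members, was likewise higher on plate 2 without overlap, with a log2 fold change of 0.32 ± 0.15 (SE; edgeR adjusted p = 0.320), and 0.17 without the plate 2 library of middle total. Psmb9 had −0.20 ± 0.65, which turned to 0.24 ± 0.17 without that library, and Psmb10 had −0.31 ± 0.16 and −0.47 ± 0.14 without it.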

How the data were processed

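The 6 GLUTag libraries were made with the QuantSeq 3′ mRNA-Seq FWD kit. The authors trimmed reads (Trim Galore 0.6.4), assigned them with Salmon 1.5.1 to GENCODE transcripts of GRCm38 (release M23) with no correction for length, and gene totals were formed with Tximeta. What the authors deposited are expected counts, which need not be whole, with no normalization. Totals were 21399987 to 36488198, with a detection limit set at 3 counts.

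CPM were computed over the column total from unrounded counts, and counts were rounded for the tests. Symbols and positions came from GENCODE release M21 (54107 of 54281 identifiers matched), promoters from RefSeq. For plate 2 against plate 1, the quasi-likelihood test of edgeR 4.0.16 was used with TMM factors, filterByExpr and robust dispersion, and Benjamini-Hochberg adjustment covered 15669 genes. Fits in limma-voom 3.58.1 and DESeq2 1.42.0, other filters and scalings and the omission of each library were alternatives, and Psme2 and Psme2b were also summed, an alternative added after seeing the data. A block was likewise added. The labels number the plates apart, but the column names number the libraries 1 to 3 on each plate, and over 5031 genes the deviations from the plate means correlated at 0.17, 0.16 and 0.18 (Pearson) in libraries with the same number and at −0.17 to −0.04 in the others. The script was tested on simulated data. Python 3.11.15, scipy 1.17.1 and R 4.3.3 were used. Each pair of libraries differed by more than sampling noise (chi-square per gene of at least 10.9).

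Named were all catalytic subunits, Psmb2, the highest and lowest 2 of each role, members past the threshold or with the 5 smallest p-values, those at 3 counts or fewer everywhere and those over 2-fold apart from their plate mates. Members, lists and Psmb2 for the comparison of plates were chosen with earlier results of these data known. The list genes named, and the members called in an alternative fit, were chosen after their values were seen. Paaf1 was not found in the annotation used. The first 25 bases after the RefSeq start were found in a GENCODE transcript for 39 of 45 windows, not for Psmb6.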

Additional observations from a re-analysis of the deposited data

Results flagged for a closer look

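Of 53 values checked over the 6 libraries (the total, 49 members and 3 shares), 4 had 1 library far from the other 5, by Dixon's ratio of the gap to the range, which chance passes in about 1 in 20 groups. The library was that of middle total on plate 2 each time, in which 10.1% of all genes tested were over 2-fold lower than the mean of its plate mates. The share of all genes that pass Dixon's ratio is not given, so whether such values are particular to the members was not tested. Psma5 was at 37.3 CPM in it against 162 to 205 CPM in the others, Psmb7 at 72.9 CPM against 139 to 163 CPM and Psmg1 at 6.86 CPM against 24.9 to 31.4 CPM. The Psmb10 share of the beta2 place was 18.5% against 7.79% to 9.93%. Without that library the means were 183 CPM for Psma5, 146 CPM for Psmb7, 28.1 CPM for Psmg1 and 8.86% for the Psmb10 share.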

How the results depend on the processing

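The log2 fold change of Psmb2 kept its sign in all 14 alternative fits. With a library left out it lay between −1.49 and −1.36, and the genes called lay between 0 and 1911 and the members between 0 and 15. Genes called were 29 in the fit reported, 584 with DESeq2, 1482 without scaling and 545 without a filter, and members called were 1, 2, 6 and 2. The cause was not tested. For the main results, 98 alternative values kept their direction, their side of the threshold and their size, 17 counts moved by over 1.5 times and Psmb2 lost its call in 3, without plate 1 replicate 1, plate 1 replicate 2 or the plate 2 library of lowest total. Of 400 alternative values for single levels, 1 moved by more than the SD between libraries (Psmd8, 308 CPM without mitochondrial genes in the total). With the replicate block by the number in the column names, 5 genes and 1 member were called, Psmb2 at −1.43, and no call of a named member changed. At this depth, levels under 0.0822 to 0.140 CPM were not detectable.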
